A study of Ovis aries with 6 samples.

Results

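Skeletal muscle can draw energy from fatty acids and from ketone bodies, and the genes for both were compared between the longissimus dorsi muscles of sheep breeds. The genes form a fixed list of 41 symbols for enzymes and carriers of fatty acid oxidation and ketone use, and the members are the rows of the count table that carry a listed symbol. Of the 41, 35 had a row among the 23144 genes of the table, and 34 passed the filter for low counts. ACSL6 was the member with too few reads to be tested. ACADM, ACAD9, ACAD10, ECHS1, ACSS1 and CD36 had no row under these symbols and were left out. The comparison was made between females aged 1 year, 3 of the Qianhua Mutton Merino breed (QHMM) and 3 of the Small Tail Han breed (STH), with 1 library per animal. QHMM is a young mutton and wool breed from South African Mutton Merino rams and Northeast Fine-wool ewes, and STH is a traditional local breed. Animals of both breeds were kept in the same environment. They were weighed after a fast before slaughter, and no other treatment is named. Their genotypes and kinship are not given in the sources used here. Breed thus stands for all inherited differences between these animals and for others that go with it, such as live weight, which was higher in QHMM.

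Before a long-chain fatty acid can be burned, it is bound in the cytosol by fatty acid-binding proteins and joined to coenzyme A by acyl-CoA synthetases. Carnitine palmitoyltransferase 1 on the outer mitochondrial membrane passes the acyl group to carnitine, and malonyl-CoA inhibits this step. In the matrix, each turn of the β-oxidation spiral consists of a dehydrogenation, a hydration, another dehydrogenation and a thiolysis, and the electrons of the first step reach the respiratory chain through the electron transfer flavoprotein and its dehydrogenase. Peroxisomes shorten chains that mitochondria handle poorly. Ketone bodies from the blood are turned back into acetyl-CoA in muscle. Oxidative fibres rely on these reactions more than glycolytic fibres do.

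Reads counted on genes numbered 10982191 to 14334544 per library. Of the genes that mark skeletal muscle, 5 of 6 had a row, and their summed RPKM (reads on a gene scaled by its length in kilobases and by the library total) was 65489 to 107018 over the libraries, led by ACTA1, the skeletal muscle actin. The second principal component set QHMM replicate 2 and STH replicate 3 apart, and values without these libraries are given where they bear on a result. RNA came from whole muscle, in which fewer cells of a type and less RNA per cell cannot be told apart.

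The members with a row together took 0.283%, 0.332% and 0.336% of the reads on genes across the QHMM replicates, against 0.436%, 0.398% and 0.314% across those of STH. The shares of the breeds overlapped, since STH replicate 3 lay below QHMM replicates 2 and 3. Shares scale by the library total alone. The TMM factors behind the normalized counts below were 0.852 for QHMM replicate 2 and 0.853 for STH replicate 3. For the other libraries they were 1.01 to 1.20, so the order of the libraries can differ on that scale. For QHMM replicate 1 the 95% Wilson interval was 0.280% to 0.286%, and for STH replicate 3 0.311% to 0.317%, which covers counting error only.

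Per length, the genes spanned more than 3 orders of magnitude. CRAT, the carnitine acetyltransferase that buffers acetyl groups, was highest with a mean RPKM of 215 (range 178 to 245 over 6 libraries). It was followed by ACADVL, the very-long-chain acyl-CoA dehydrogenase, with 165, ETFB, the β subunit of the electron transfer flavoprotein, with 163, and FABP3, the fatty acid-binding protein of heart and skeletal muscle, with 153. The trifunctional protein subunits HADHB and HADHA and the dehydrogenase HADH lay at mean RPKM values of 119, 116 and 111. These 7 genes and ACAA2, the mitochondrial thiolase at 102, were the 8 members with a mean RPKM above 100. Of the others, 15 lay between 10 and 100 and 12 below 10. At the low end were BDH1 at 1.44 and ACSL6 at 0.123. The RPKM ranges overlapped for 33 of the 34 neighbouring pairs in this order, and only the range of ACSL6 lay apart from that of its neighbour. Overlapping ranges do not give the order within a library.

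**Figure D1:**
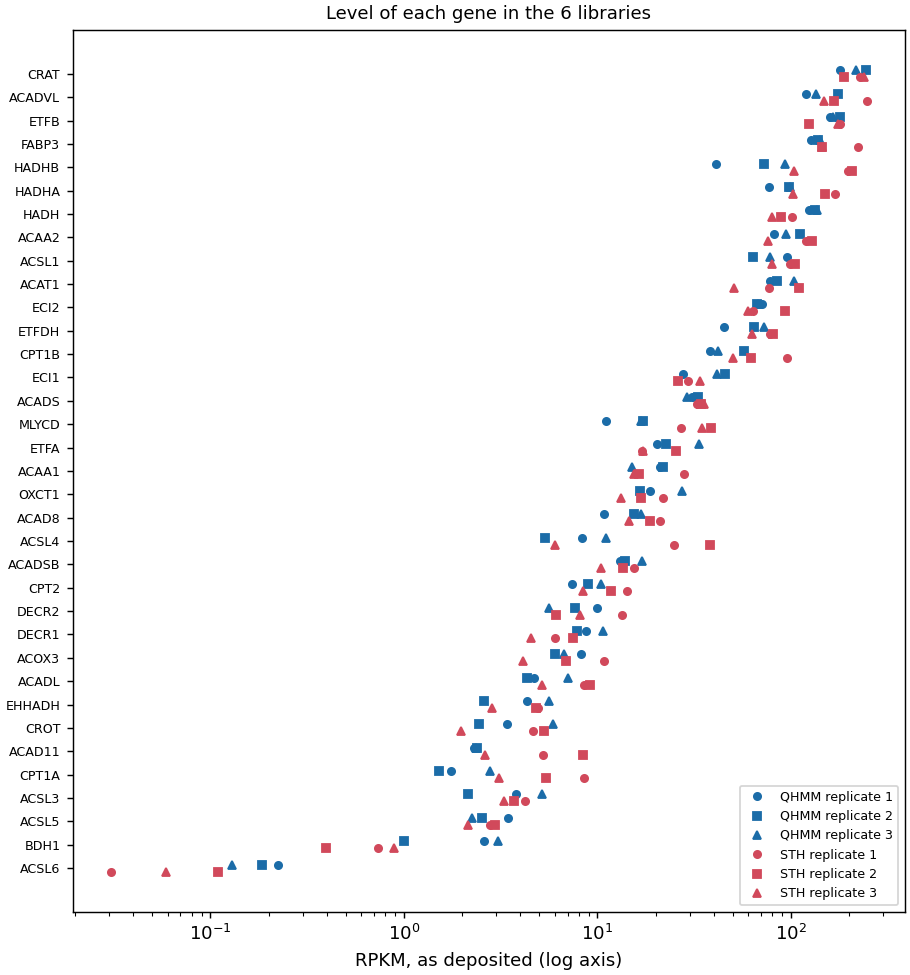
RPKM of the 35 members on a log axis, ordered by the mean, with circles, squares and triangles for replicates 1, 2 and 3 of QHMM (blue) and STH (red). CRAT stands at the top with a mean RPKM of 215 and ACSL6 at the bottom with 0.123, and most neighbours overlap.

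Paralogs differed by large factors. Among the long-chain acyl-CoA synthetases, ACSL1 had a mean RPKM of 86.8, ACSL4 of 15.6, ACSL3 of 3.73 and ACSL5 of 2.69. CPT1B, the muscle form of carnitine palmitoyltransferase 1, had 57.5 where CPT1A, the form known from liver, had 3.86. The mitochondrial thiolase ACAA2 stood above the peroxisomal thiolase ACAA1, at 19.7, whereas the mitochondrial reductase DECR1 at 7.56 and the peroxisomal reductase DECR2 at 8.49 were close. For the transfer flavoprotein, ETFB was at 163 and its partner ETFA at 22.7, although the subunits form a complex in equal number. In each library the RPKM of ETFA was 0.0940 to 0.205 times that of ETFB.

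Between the breeds, CPT1A was the only member to pass the edgeR test. Differences are given as log2 fold changes (log2FC), STH vs. QHMM, on TMM-normalized counts, and a gene was called at an FDR below 0.05 with a change of more than 1.5-fold. With this rule 1 of the 34 tested members was called, or 2.94%, against 3.45% of all 12506 genes tested. CPT1A was higher in STH, where 1.62% of all genes were called, and 0 members were called lower, against 1.83%. Before adjustment, 8 members (23.5%) had an edgeR p below 0.05 against 19.2% of all genes. Of these, 5 were higher in STH, against 9.43% of all genes, and 3 lower, against 9.72%. DESeq2 called 6 members (17.6%) against 7.80% of all genes. The libraries of the breeds did not overlap in 9 members (26.5%), against 24.7% of all genes. In 5 of the 9 STH was higher (13.0% of all genes) and in 4 lower (11.7%). The median log2FC of the members was -0.013, beside 0.023 over all genes, with 17 members above 0 and 17 below. In absolute size the median was 0.22 for the members and 0.34 for all genes. For 23 members the 95% interval of the log2FC lay within 1 of 0, that is, short of a 2-fold difference either way, and for 3 it lay short of a 1.5-fold difference.

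**Figure D2:**
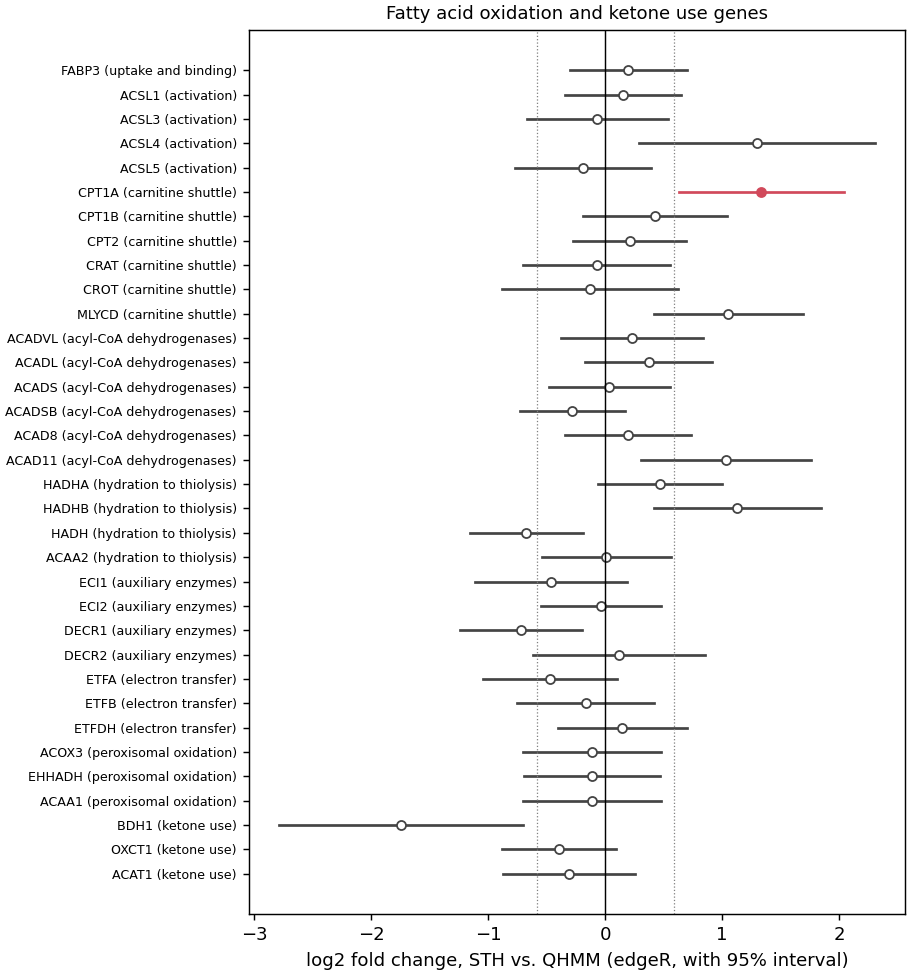
Log2FC of the 34 tested members, STH vs. QHMM, from edgeR with 95% intervals, ordered by role. Dotted lines mark a 1.5-fold difference to either side, and the filled red point is CPT1A, the called gene, at 1.33.

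CPT1A had 54.0, 55.4 and 83.9 as its normalized counts across QHMM replicates 1, 2 and 3, against 222, 152 and 113 in the STH replicates. Every STH library lay above every QHMM library. The breed mean was 64.4 ± 16.9 for QHMM (SD, n = 3) and rose to 162 ± 55.3 for STH (SD, n = 3), at a log2FC of 1.33 (SE 0.32, FDR = 0.0491, edgeR) or 2.52-fold. The FDR stood close to the threshold. Without 1 library it was 0.0373 to 0.154, and the call remained without STH replicate 3 and was lost without QHMM replicate 1 (0.154), QHMM replicate 2 (0.149), QHMM replicate 3 (0.0725), STH replicate 1 (0.109) or STH replicate 2 (0.0951). Without QHMM replicate 2 and STH replicate 3 together the log2FC was 1.43 with an FDR of 0.150, in a fit that called 11 genes in all. With all libraries, DESeq2 gave an adjusted p of 0.00625, whereas the call was lost with upper-quartile factors (FDR = 0.0616), without the 20 most abundant genes (0.0506) and with limma-trend on log2(RPKM + 1), filtered (0.110) or not (0.230). CPT1A was called in 5 of 17 settings.

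CPT1B, the far more abundant form, had 1302, 2329.9 and 1408 normalized counts among the QHMM libraries, against 2780.2, 1947 and 2051 for STH. The breeds overlapped through QHMM replicate 2, and the log2FC of 0.43 (SE 0.28, FDR = 0.444) did not pass the test. Within a library, the RPKM of CPT1A was 0.0464, 0.0266 and 0.0667 times that of CPT1B across the QHMM replicates and 0.0894, 0.0873 and 0.0616 times across those of STH. This ratio does not depend on how libraries are scaled, and it overlapped between the breeds because of QHMM replicate 3. CPT2, which returns the acyl group to coenzyme A inside the mitochondrion, had a log2FC of 0.21 with a 95% interval of -0.27 to 0.69.

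MLYCD encodes malonyl-CoA decarboxylase, which removes the inhibitor of carnitine palmitoyltransferase 1. It had 239, 438 and 356 normalized counts among the QHMM libraries, against 493, 764 and 882 for STH, so the STH libraries lay above the QHMM libraries. STH replicate 1 was close to QHMM replicate 2. Its log2FC of 1.05 (SE 0.29, FDR = 0.0755) did not pass the test. In the limma-trend test on log2(RPKM + 1) it was 1.11 with an adjusted p of 0.0357, where the median over all genes stood at 0.12. DESeq2 gave an adjusted p of 0.0206, and limma-trend on every gene 0.0884. The edgeR FDR was 0.0369 without STH replicate 1, 0.0948 to 0.228 without any other single library, and 0.211 without QHMM replicate 2 and STH replicate 3.

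The other carnitine acyltransferases, CRAT and CROT, were not called. CRAT had 5743, 9382 and 6829 normalized counts among the QHMM libraries, against 6166, 5561 and 9125 for STH, with a log2FC of -0.074 (95% interval -0.71 to 0.56). QHMM replicate 2 and STH replicate 3, the libraries that stood apart on the second component, had the highest CRAT counts of their breeds. CROT, the peroxisomal octanoyltransferase, had a log2FC of -0.13 (SE 0.34, FDR = 0.883). The signs of both flipped, to 0.036 and 0.00072, with limma-trend on log2(RPKM + 1).

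**Figure D3:**
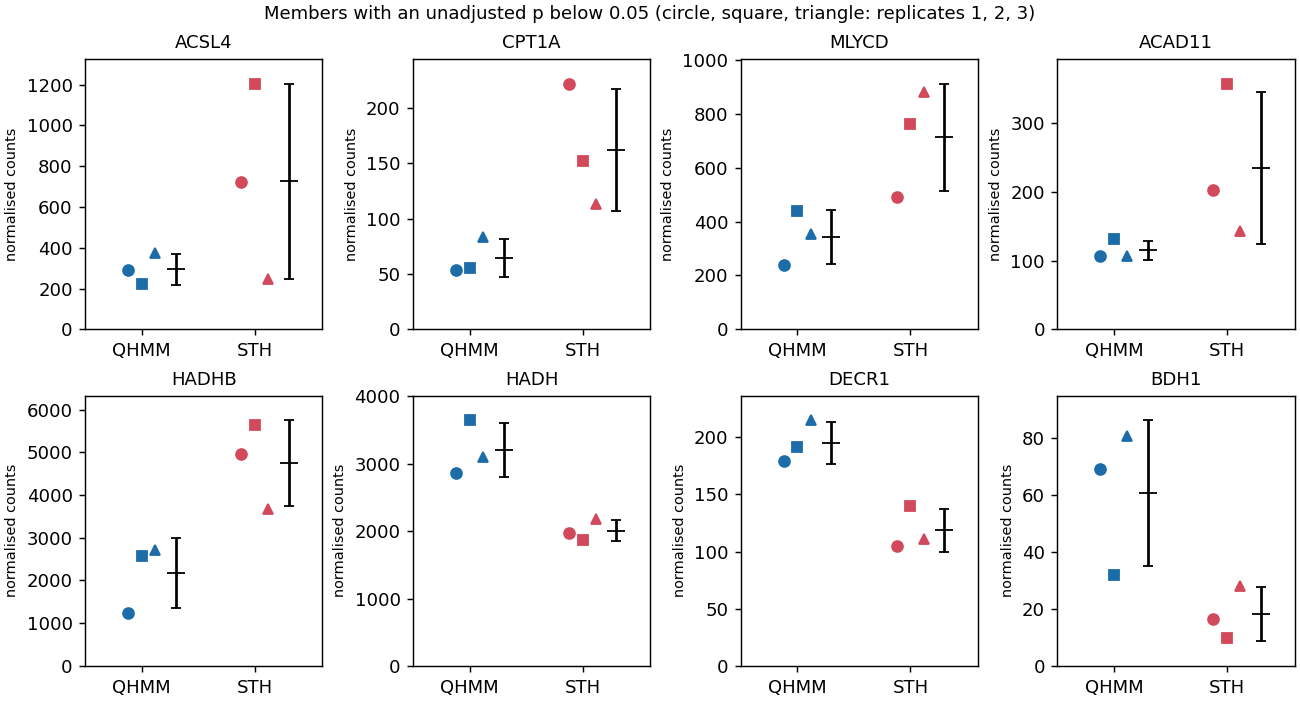
Normalized counts of the 8 members with an unadjusted edgeR p below 0.05, by breed, with symbols for replicates 1, 2 and 3 and the mean with its SD (n = 3) to the right. CPT1A, MLYCD, ACAD11 and HADHB lie higher in all STH libraries, HADH, DECR1 and BDH1 lower, and for ACSL4 STH replicate 3 falls among the QHMM libraries.

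At the entry of the pathway, FABP3 had 1221, 1564 and 1332 normalized counts among the QHMM libraries, against 1802, 1276 and 1647 for STH. The breeds overlapped, and the log2FC was 0.20 with a 95% interval of -0.30 to 0.70. ACSL1, the main synthetase here, was not called either, with 4748, 3775 and 3831 among the QHMM libraries, against 4202, 4818 and 4746 for STH and a log2FC of 0.16 (SE 0.22, FDR = 0.757). ACSL4, known for its preference for arachidonic acid, was the synthetase that varied most. It had 289, 221 and 374 normalized counts among the QHMM libraries, against 723, 1205 and 248 for STH. STH replicates 1 and 2 were far above QHMM, but STH replicate 3 lay between the QHMM values. Its log2FC of 1.30 (SE 0.46, FDR = 0.149) became 1.71 (FDR = 0.0250) without STH replicate 3 and 0.70 (FDR = 0.504) without STH replicate 2. With all libraries, DESeq2 called ACSL4 with an adjusted p of 0.0348. ACSL3 and ACSL5 had log2FC values of -0.068 and -0.19, and neither was past the threshold. ACSL6 had 8, 6 and 4 raw reads in QHMM and 1, 3 and 2 in STH, too few for a comparison.

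The acyl-CoA dehydrogenases open each turn of the spiral and are sorted by chain length. ACADVL had 3410.3, 5923 and 3784 normalized counts among the QHMM libraries, against 5963, 4386 and 5023 for STH, with a log2FC of 0.23 (SE 0.27, FDR = 0.700). QHMM replicate 2 was close to the highest STH library, so the breeds overlapped. The long-chain enzyme ACADL had a log2FC of 0.37 (95% interval -0.17 to 0.91), and the short-chain enzyme ACADS of 0.034 (-0.48 to 0.55). Of the dehydrogenases that serve branched-chain amino acids, ACADSB had -0.28 (-0.73 to 0.17) and ACAD8, the isobutyryl-CoA dehydrogenase, 0.20 (-0.34 to 0.73). ACAD11, another long-chain acyl-CoA dehydrogenase, stood out from these with 106, 131 and 107 normalized counts among the QHMM libraries, against 203, 357 and 143 for STH. All STH libraries were above QHMM, with STH replicate 2 the farthest. Its log2FC of 1.03 (SE 0.33, FDR = 0.117) was 0.58 without STH replicate 2, and neither passed the test.

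Genes of the later steps of the spiral had values of both signs, and edgeR called none of them. HADHA and HADHB encode the subunits of the mitochondrial trifunctional protein, which carries out the hydration, second dehydrogenation and thiolysis of long chains. HADHB had 1229, 2568 and 2721 normalized counts among the QHMM libraries, against 4956, 5629 and 3661 for STH. The STH libraries lay above QHMM, where replicate 1 was less than 0.5 times either of the others. HADHB had a log2FC of 1.13 (SE 0.32, FDR = 0.0848), which was 0.82 without QHMM replicate 1, and DESeq2 called it with an adjusted p of 0.0127. HADHA had 2702, 4060.5 and 3399 among the QHMM libraries, against 5010.0, 4815 and 4250.4 for STH, with a log2FC of 0.47 (SE 0.24, FDR = 0.314). Here too the breeds did not overlap, but by a narrow margin. HADH, the dehydrogenase for short and medium chains that takes over when the chain has been shortened, had the opposite order, with 2861, 3646 and 3095 normalized counts among the QHMM libraries, against 1974, 1867 and 2175 for STH. Its log2FC was -0.67 (SE 0.22, FDR = 0.122), not past the threshold in edgeR, while DESeq2 gave an adjusted p of 0.0472. ACAA2, the thiolase for shorter chains, had 0.010 (95% interval -0.54 to 0.56), and its sign flipped with DESeq2, upper-quartile factors and other count filters.

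Ratios of these genes within a library are free of the scaling between libraries. They were formed after the values had been seen and are given as a description without a test. The RPKM of HADHA was 0.621, 0.732 and 0.722 times that of HADH across the QHMM replicates and 1.67, 1.70 and 1.28 times across those of STH. All QHMM libraries thus had more HADH than HADHA per length, and all STH libraries more HADHA than HADH. The mean log2 ratio was -0.54 ± 0.13 in QHMM (SD, n = 3) and 0.62 ± 0.23 in STH (n = 3), a difference of 1.16. HADHB relative to HADHA was 0.534, 0.742 and 0.939 in QHMM and 1.16, 1.37 and 1.01 in STH. The lowest STH ratio was just above the highest QHMM ratio. HADHA and HADHB are neighbours in the RefSeq annotation of the assembly ARS-UI_Ramb_v3.0, and the count table places them on opposite strands.

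**Figure D4:**
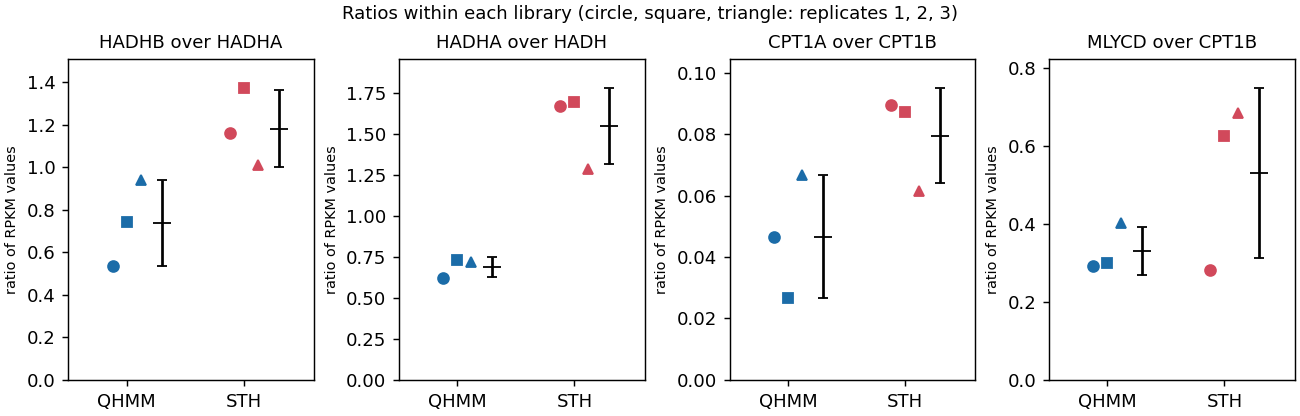
Ratios of RPKM values within each library, by breed, with symbols for replicates 1, 2 and 3 and the mean with its SD (n = 3). HADHA over HADH lies between 0.621 and 0.732 in QHMM and between 1.28 and 1.70 in STH, while CPT1A over CPT1B and MLYCD over CPT1B overlap.

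Auxiliary enzymes handle the double bonds of unsaturated fatty acids. DECR1, the mitochondrial 2,4-dienoyl-CoA reductase, had 179, 191 and 215 normalized counts among the QHMM libraries, against 105, 139.9 and 111 for STH. All STH libraries were lower, and the log2FC of -0.72 (SE 0.24, FDR = 0.125) did not pass the test. ECI1, a mitochondrial enoyl-CoA isomerase, had 543, 1070.0 and 803 among the QHMM libraries, against 488, 471 and 790.3 for STH, with -0.47 (SE 0.30, FDR = 0.432). Its breeds overlapped, since STH replicate 3 lay above QHMM replicate 1. ECI2 and the peroxisomal reductase DECR2 had log2FC values of -0.035 and 0.12. Of the electron transfer genes, ETFA had -0.47 (95% interval -1.05 to 0.10), ETFB -0.17 (-0.75 to 0.42) and ETFDH, which hands the electrons to ubiquinone, 0.15 (-0.40 to 0.70). None of these 7 genes was called by edgeR or DESeq2.

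None of the peroxisomal genes was called. ACOX3, an acyl-CoA oxidase for branched chains, EHHADH, the bifunctional enzyme, and the thiolase ACAA1 had log2FC values of -0.11, -0.11 and -0.11. Their 95% intervals all lay between -0.70 and 0.48. EHHADH and ACAA1 flipped sign, to 0.021 and 0.012, with limma-trend on log2(RPKM + 1).

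The 3 ketone use genes all had values below 0, and edgeR called none of them. BDH1, the mitochondrial enzyme that oxidizes 3-hydroxybutyrate to acetoacetate, had 69.2, 31.9 and 80.8 normalized counts among the QHMM libraries, against 16.6, 9.69 and 28.2 for STH. The STH libraries were lower, although QHMM replicate 2 and STH replicate 3 were close to each other. BDH1 had the most negative log2FC of the members, -1.74 (SE 0.47, FDR = 0.0727), and the widest SE. Without 1 library it stayed between -2.18 and -1.47 with an FDR of at least 0.0596, and DESeq2 gave an adjusted p of 0.00956. OXCT1, which activates acetoacetate and is the committed step of ketone use, had 819, 865 and 1176 among the QHMM libraries, against 811, 679 and 688 for STH. Every STH value was below every QHMM value, but STH replicate 1 and QHMM replicate 1 were close, and the log2FC was -0.39 (SE 0.22, FDR = 0.366). ACAT1, which splits acetoacetyl-CoA, had 1586, 2041 and 2067 among the QHMM libraries, against 1325, 2047 and 1229 for STH, with -0.31 (SE 0.26, FDR = 0.563) and overlapping breeds.

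Within a breed, animals were compared by the coefficient of variation. Its median over the 34 members was 24.6% in QHMM and 20.6% in STH, beside 20.7% and 23.9% over all genes tested. QHMM replicate 1 had the lowest normalized count of its breed in 22 of the 34 members, where it was lowest for 31.8% of all genes. QHMM replicate 2 was the highest of its breed in 17, where it was highest for 34.1% of all genes. In STH, no library was the highest in more than 13 members. Without QHMM replicate 1, HADHB and MLYCD had log2FC values of 0.82 and 0.82.

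Other genes of fatty acid and ketone metabolism were taken from a second list of 48 symbols. Of these, 45 had a row and 41 were tested, 3 were called higher in STH and 0 lower. These shares stand beside the 1.62% of all genes called higher and 1.83% called lower. DESeq2 called 4 of the 41 higher and 5 lower, against 420 and 555 of all 12506 genes. The median log2FC of the 41 was -0.24. PDK4, the kinase that shuts pyruvate out of the citrate cycle when fat is burned, had 478, 2573 and 166 normalized counts among the QHMM libraries, against 34274, 41354 and 38963 for STH. It was low in QHMM, where replicate 2 was highest, and high in every STH library, with a log2FC of 5.16 (SE 0.86, FDR = 0.0137). With 1 library left out the log2FC was 4.65 (without QHMM replicate 3) to 6.89 (without QHMM replicate 2). ACACB, the acetyl-CoA carboxylase that makes the malonyl-CoA acting on carnitine palmitoyltransferase 1, had 1605, 1745 and 1387 among the QHMM libraries, against 3202, 7359 and 5105 for STH. It rose with a log2FC of 1.73 (SE 0.31, FDR = 0.0186). FABP5, a fatty acid-binding protein found in several cell types including endothelium and fat cells, had a mean of 261 ± 96.4 for QHMM (SD, n = 3) and rose to 906 ± 124 for STH (SD, n = 3), a log2FC of 1.79 (SE 0.28, FDR = 0.0114). FABP5 remained called with any 1 library left out. PDK4 was called in 5 of these 6 fits and not without QHMM replicate 1 (FDR = 0.0506). ACACB was called in 3 of them and not without QHMM replicate 1 (FDR = 0.0690), QHMM replicate 2 (0.0519) or QHMM replicate 3 (0.0725).

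Besides PDK4 and FABP5, the most abundant genes of the list were HSD17B10, a mitochondrial hydroxyacyl-CoA dehydrogenase, SLC25A20, the carnitine-acylcarnitine carrier, and FABP4, the fatty acid-binding protein of fat cells, with mean RPKM values of 84.6, 60.9 and 50.9. Their log2FC values of -0.22, 0.073 and -0.040 were not past the threshold. SLC25A20 works between CPT1 and CPT2 and had a 95% interval of -0.42 to 0.57. In 6 of the 41 every STH library was higher than every QHMM library, against 13.0% of all genes, and in 11 every STH library was lower, against 11.7%, and edgeR called none of these 11. Of the 6, the 3 that were not called were HSDL2 (log2FC 1.40, FDR = 0.0502), ACOT8 (0.80, 0.124) and ACOT9 (0.78, 0.142), of which ACOT8 and ACOT9 encode acyl-CoA thioesterases, named after their values were seen. Of the 11, also named after their values were seen, 10 were the fatty acid transporter SLC27A1 (-1.0), LPL, the lipoprotein lipase (-1.66), the carnitine transporter SLC22A5 (-0.28), the peroxisomal gene HSD17B4 (-0.37), AACS, a cytosolic acetoacetyl-CoA synthetase (-0.98), and IVD, PCCA, PCCB, MUT and GCDH, which act on acyl-CoA products of amino acids and odd-chain fatty acids (-0.83, -0.62, -0.76, -0.78 and -0.52). The edgeR FDR of these 10 ranged from 0.0582 to 0.577.

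**Figure D5:**
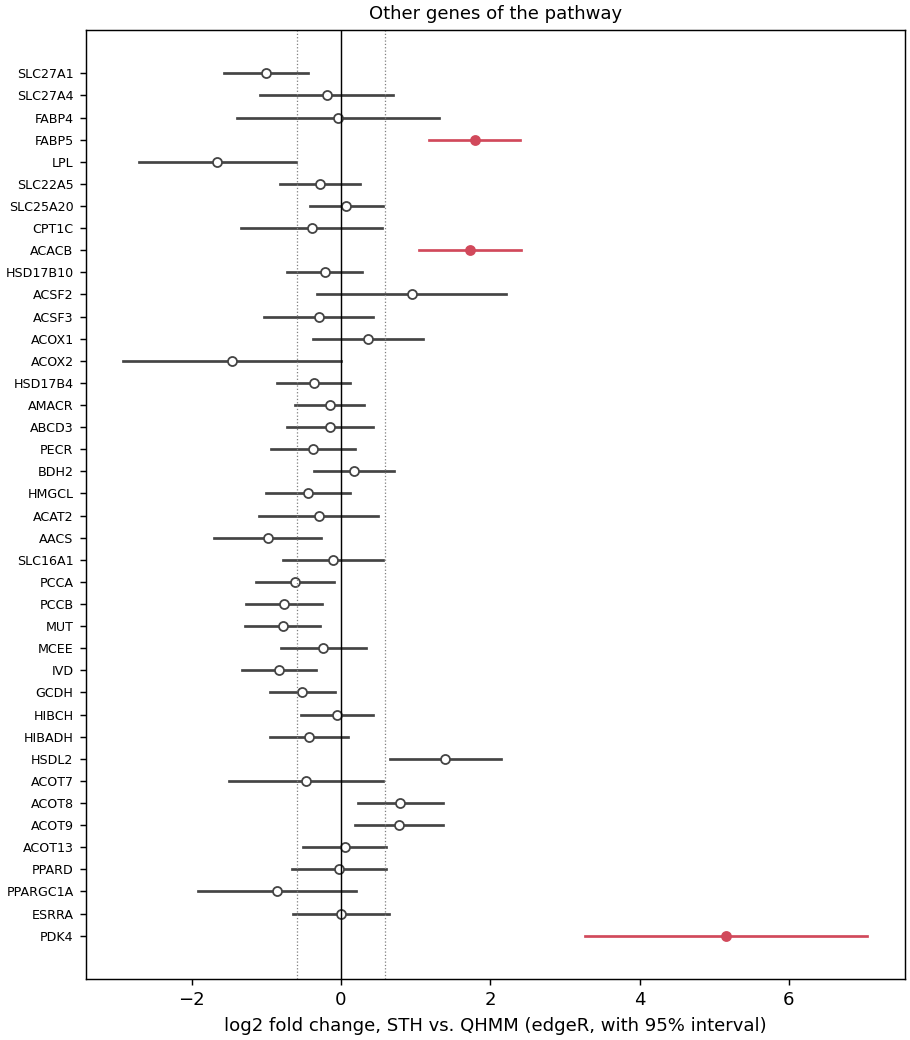
Log2FC of the tested genes of the second list other than 1 that is not reported here, STH vs. QHMM, from edgeR with 95% intervals and dotted lines at a 1.5-fold difference to either side. The filled red points are PDK4 at 5.16, FABP5 at 1.79 and ACACB at 1.73.

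Markers of fibre types and of other cells were read in the same libraries, since oxidative fibres, fat cells and endothelium use these genes to different degrees. Of the slow-fibre genes, 10 of 11 had a row, 5 were called lower in STH and 0 higher, and their summed RPKM was 16732 to 24425 in QHMM and 7383 to 11514 in STH. The most abundant of them was MYL2, the slow regulatory light chain, with a log2FC of -1.44 (SE 0.31, FDR = 0.0351). OMYHCS, MYH6, TNNT1 and CASQ2 were the others called. Of the fast-fibre genes, 8 of 10 had a row and 0 of the 7 tested were called, with summed RPKM of 56326 to 76937 in QHMM and 49135 to 66070.1 in STH. MYLPF led this list. TNNT3 had 0 reads in every library, and the reason was not tested. The other fast troponin genes TNNI2 and TNNC2, named after their values were seen, had mean RPKM values of 8301 and 16790. CASQ1 (log2FC -1.37, FDR = 0.0714) and ACTN3 (-1.02, 0.155), named after their values were seen, were not called but were lower in every STH library than in any QHMM library.

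Of the fat cell genes, 5 of 6 had a row and 4 were called lower in STH, namely ADIPOQ, PLIN1, LEP and CIDEC. The fifth, FABP4, is also on the second list and led the fat cell list in RPKM. LEP had few reads, with 84, 11 and 24 raw reads in QHMM and 5, 0 and 1 in STH. CIDEC had 884, 157 and 237 normalized counts among the QHMM libraries, against 79.8, 59.2 and 97.1 for STH. The summed RPKM of the fat cell list was 59.2 to 276 in QHMM and 40.3 to 129 in STH. QHMM replicate 1 had the highest sum. Endothelial genes summed to 115 to 147 and 119.9 to 199, led by PECAM1, and leukocyte genes to 14.5 to 21.5 and 14.2 to 31.6, led by CD14. In both lists 0 genes were called. The endothelial genes VWF (log2FC 0.40, FDR = 0.346, edgeR) and EMCN (0.67, 0.203) were named after their values were seen. Both were higher in every STH library than in any QHMM library, while PECAM1 and CDH5 overlapped. None of the fat cell, endothelial or leukocyte markers with a row was at 0 in all libraries. The part that slow fibres or fat cells play in the values of the members was not tested.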

How the data were processed

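Poly(A)-containing RNA of 6 longissimus muscles was sequenced on an Ion Proton instrument. The authors mapped filtered reads to the sheep genome (Oar_v3.1), used unique mapped reads, and deposited counts per gene without normalization. They also deposited RPKM values. Over 13822 genes with reads in every library, these equal the counts scaled by a gene length and the library total, to within a relative spread of 5.73e-06, and carry no upper-quartile correction, although the methods name one. The aligner, counting program, annotation release and use of strand are not given in the sources used here. In the RPKM table, 25 gene names had become dates, none of them a member. All 12 per-sample columns were used.

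Counts of all genes were fitted with edgeR 4.0.16 in R 4.3.3 (TMM, filterByExpr on breed, glmQLFit, glmQLFTest), with Benjamini-Hochberg adjustment over 12506 genes and the thresholds of the methods (FDR below 0.05, more than 1.5-fold). EBSeq, which the methods name, was not run. Normalized counts are counts divided by the library total and TMM factor and multiplied by the median library total. SEs come from the fold change and F statistic, and intervals from the t distribution with edgeR's degrees of freedom. With 3 animals a breed, an exact permutation test of 1 gene has 0.10 as its smallest p.

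Alternatives were DESeq2 1.42.0, upper-quartile factors, other count filters, the replicate number as a block, no minimum fold change, the 20 most abundant genes left out, limma-trend (limma 3.58.1) on log2(RPKM + 1) and log2(RPKM + 0.1), and fits without 1 or 2 libraries. The RPKM fits kept genes that reached an RPKM of 1 in 3 or more libraries, or all genes. The main edgeR fit was tried on simulated counts, and the alternatives were not. The members and lists were chosen with earlier results of these data known. All members are named, and of the second list the called genes and the 5 with the highest mean RPKM. Other genes of that list are named where the breeds did not overlap, which was chosen after their values were seen. Some genes of that list are counted but not reported here by name. Of the cell type markers, the highest in each list and the called ones are named, and others are named as chosen after their values were seen.

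All 35 members with a row were matched by symbol in RefSeq (ARS-UI_Ramb_v3.0). Its intervals of FABP3, MLYCD, ACAD8, ACAD11, ETFB, ACOX3 and BDH1 overlap another gene, so reads of these 7 may be shared. Coordinates are not given, since that build differs from Oar_v3.1, and no sequences are printed. The labels do not say that equal replicate numbers pair the animals, and a check by correlation cannot exclude it. Plots were drawn with matplotlib 3.10.9.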

Additional observations from a re-analysis of the deposited data

How the results depend on the processing

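Calls depend strongly on the test and the filter, and the cause was not tested. Over all genes, 432 were called, against 975 with DESeq2, 806 without a filter on low counts and 78 with limma-trend on every gene with an RPKM above 0, and from 11 to 535 with 1 or 2 libraries left out. The low end is the fit without QHMM replicate 2 and STH replicate 3, with 2 libraries a breed, and the fit without QHMM replicate 1 called 131. The calls split into 203 higher and 229 lower, and into 212 higher and 134 lower with limma-trend on log2(RPKM + 1), which scales by the library total alone and put the median gene at 0.12. Of the members, 1 was called, against 6 with DESeq2, 4 without a filter, 0 with upper-quartile factors, 0 with the 20 most abundant genes left out, 0 with limma-trend on every gene, and 0 to 2 with libraries left out. The filtered limma-trend fits also called 1, which was MLYCD and not CPT1A. Of the second list, 3 were called, all of them higher in STH. DESeq2 called 9, of which 5 were lower, and the fit without a filter called 8, of which 3 were lower. With at least 10 counts in every library 6 were called, 2 of them lower. The count was 5 with limma-trend on log2(RPKM + 1), 1 of them lower, and 1 to 5 with libraries left out. The median log2 fold change of the members moved from -0.013 to 0.13 and 0.14 with limma-trend on log2(RPKM + 1) and log2(RPKM + 0.1), where the medians over all genes were 0.12 and 0.14, and lay between -0.067 and 0.12 with libraries left out.

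With the replicate number as a block, 457 genes, 2 members (MLYCD and BDH1 in place of CPT1A) and 5 genes of the second list were called. The deviations of same-numbered libraries correlated with 0.23, -0.038 and -0.13, and not every library correlates best with its own number. With 3 libraries a breed, these values cannot show whether same-numbered libraries share a batch, which the labels do not name.

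Members near 0 changed sign. With limma-trend on log2(RPKM + 1), filtered or not, ACSL3 was at 0.064, CRAT at 0.036, CROT at 0.00072, ECI2 at 0.057, EHHADH at 0.021 and ACAA1 at 0.012. On log2(RPKM + 0.1), ACSL3 was at 0.096, CRAT at 0.037, ECI2 at 0.058, EHHADH at 0.031 and ACAA1 at 0.012. ACAA2 was at -0.010 with DESeq2, -0.0085 with upper-quartile factors, -0.0046 without a filter, -0.019 with at least 10 counts in every library and -0.012 without the 20 most abundant genes. With libraries left out, log2 fold changes crossed 0 for ACAA1 (-0.32 to 0.10), ACAA2 (-0.15 to 0.32), ACAD8 (-0.021 to 0.35), ACADS (-0.16 to 0.18), ACOX3 (-0.41 to 0.080), ACSL3 (-0.35 to 0.20), CRAT (-0.32 to 0.15), CROT (-0.38 to 0.23), DECR2 (-0.12 to 0.34), ECI2 (-0.22 to 0.11), EHHADH (-0.30 to 0.11), ETFB (-0.41 to 0.0042), ETFDH (-0.075 to 0.30). The other 21 members kept their direction in each alternative in which they were tested. BDH1 was not tested with at least 10 counts in every library or in the filtered limma-trend fits. ACSL6, with at most 8 reads in a library, was too shallow to be tested.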

Other observations

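Some rows without a member's symbol carry one in the BLAST column of the count table, which names the best match of the gene product. They are uncertain as to identity and were chosen after their values were seen. LOC101112867, matched to ECHS1, the short-chain enoyl-CoA hydratase that precedes HADH in the spiral, had 2854, 2858 and 2585 normalized counts in QHMM and 1626, 1629.8 and 1971 in STH. All STH libraries were lower, and the log2 fold change of -0.67 (SE 0.21, FDR = 0.117, edgeR) was not past the threshold and close to that of HADH, -0.67. LOC101111495, matched to ACAD9, which takes part in the assembly of complex I, had 0.051 (SE 0.27, FDR = 0.943).

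Of 3 rows matched to CD36, the fatty acid translocase, LOC101115115 was the most abundant, with 1017, 838 and 1442 normalized counts in QHMM and 2175, 2524 and 1216 in STH. STH replicates 1 and 2 were above QHMM and STH replicate 3 was among the QHMM values, as in ACSL4. Its log2 fold change was 0.84 (SE 0.31, FDR = 0.168). In LOC101102230, too, STH replicates 1 and 2 were above QHMM and STH replicate 3 was among the QHMM values, with 36.0, 20.1 and 33.8 and 86.5, 128 and 29.4 and a log2 fold change of 1.43 (SE 0.48, FDR = 0.137). LOC101114861 had at most 17 raw reads in a library and was not tested. Reads of near-identical copies could be split among these rows or lost from unique mapping.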
